A study of Mus musculus with 20 samples.

Results

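Immediate early genes are genes that neurons transcribe within minutes of synaptic activity, without first making new protein. The 10 described here, Fos, Fosb, Junb, Egr1, Egr2, Npas4, Nr4a1, Arc, Ier2 and Dusp1, were chosen by name, as 10 of the 25190 genes counted in the mouse hippocampus, and each name was carried by a single gene of the count table. All 10 were detected in all 20 libraries. The libraries came from male wild-type C57BL/6JOlaHsd mice aged 4 months, 5 in each of 4 groups. Every mouse received 2 infusions into the dorsal hippocampus through bilateral cannulas, 48 hours apart. The infusate was artificial cerebrospinal fluid in the Vehicle group. In the Control group it held small RNAs (sRNAs) extracted from the post-mortem hippocampus of 9 people without psychiatric illness and mixed, and in the Pool 1 and Pool 2 groups those of 10 patients with schizophrenia each, always at 0.24 µg per µL. Each sRNA group thus stands for a single mixture of donors. The mice went through behavioural tests, and the tissue was taken 24 hours later. It is called hippocampus in the sample labels and CA1, the main output field of the hippocampus, in the series' design.

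In neurons, calcium entry through NMDA receptors and voltage-gated channels activates kinases that phosphorylate transcription factors already present, such as CREB and the serum response factor with its partners, and these switch on immediate early genes. Most of the products are themselves transcription factors, which start a later wave of genes, while others act at synapses or end the kinase signal. In the hippocampus the transcripts rise with exploration and learning and fall again within hours, and they are widely used to mark recently active neurons.

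Sequence before the transcription starts of these genes was searched for letters that the factors named above can bind. The stretches of 4 members are shown because these members varied widely or together in these mice. The sequences are the 250 bases before a transcription start in RefSeq, build GRCm38.p6, in the direction of transcription. Capitals mark the letters TGACG or CGTCA (the core of the cAMP response element bound by CREB, read on either strand), the serum response element known as the CArG box, and TATAAA or TTTATA.
Fos, chr12:85473640-85473889, plus strand: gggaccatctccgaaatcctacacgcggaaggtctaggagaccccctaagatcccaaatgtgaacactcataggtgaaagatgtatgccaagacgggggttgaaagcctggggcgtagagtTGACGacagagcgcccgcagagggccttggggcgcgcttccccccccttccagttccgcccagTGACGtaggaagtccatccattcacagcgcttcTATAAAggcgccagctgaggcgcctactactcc
Junb, chr8:84978749-84978998, minus strand: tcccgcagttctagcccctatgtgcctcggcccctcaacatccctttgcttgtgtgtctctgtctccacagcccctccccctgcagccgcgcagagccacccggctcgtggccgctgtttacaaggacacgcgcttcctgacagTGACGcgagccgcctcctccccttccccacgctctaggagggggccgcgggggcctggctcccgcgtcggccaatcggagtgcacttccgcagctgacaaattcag
Nr4a1, chr15:101266596-101266845, plus strand: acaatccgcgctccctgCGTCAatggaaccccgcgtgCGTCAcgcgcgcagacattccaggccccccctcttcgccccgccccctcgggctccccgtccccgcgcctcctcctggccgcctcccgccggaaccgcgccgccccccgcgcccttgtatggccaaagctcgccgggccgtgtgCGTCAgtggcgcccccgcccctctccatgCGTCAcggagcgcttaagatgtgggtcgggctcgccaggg
Egr2, chr10:67537619-67537868, plus strand, 1 of 5 RefSeq starts of this gene: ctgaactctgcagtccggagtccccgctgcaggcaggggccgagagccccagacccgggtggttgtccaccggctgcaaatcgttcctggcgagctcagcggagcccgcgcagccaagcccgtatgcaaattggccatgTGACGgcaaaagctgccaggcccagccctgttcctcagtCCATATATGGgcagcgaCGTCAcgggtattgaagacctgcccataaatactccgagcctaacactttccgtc

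RefSeq windows were found for 7 of the 10 members, all but Arc, Ier2 and Egr1. The core TGACG lay in at least 1 window of all 7, against 19.8% of the 27025 genes with a window. In Fos it began 66 and 129 bases before the start, and a TATAAA began at 33 bases. In Nr4a1 the core occurred 4 times, the nearest 40 bases before the start. The whole palindrome TGACGTCA, which contains the core on each strand, was found only in Dusp1, 143 bases before its start, and in 1.77% of all genes. A CArG box was found only in Egr2, at 72 bases in the window shown, and in 1.62% of all genes. TATAAA was found only in Fos among the 7, and in 14.3% of all genes. These are matches of letters within 250 bases. In GENCODE M21 gene models, exons of the same gene covered all 250 bases of the Npas4 window, 47 in Dusp1 and 6 in Fosb. In Egr2 they covered up to 61 bases of a window, and none of the window shown. Sequence farther from the start was not searched, and binding was not measured.

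The libraries held between 20588280 and 25543939 counts, with no group apart in depth, and none of the 40 pairs of libraries within a group was close enough to be a library deposited again. Markers of CA1 pyramidal neurons (Wfs1, Fibcd1 and others) and of dentate granule cells (Prox1, C1ql2 and others) were present in every library. Their summed levels ran from 471 to 1250 CPM (counts scaled to library size, the unit used throughout) and from 196 to 690 CPM, so the tissue held RNA of both fields in varying amounts. Some libraries stood apart. Pool 2 replicate 1 had the lowest median correlation with the other libraries (0.969) and the highest sums of microglial (544 CPM, against at most 318 CPM in the other Pool 2 mice) and astrocyte markers (2904 CPM). Vehicle replicate 4 held 8787 CPM of choroid plexus markers, against at most 2240 CPM elsewhere. Pool 2 replicate 4 had the highest thalamic (399 CPM, against at most 179 CPM outside Pool 2) and meningeal fibroblast sums (98.2 CPM), and Pool 1 replicate 5 had a median correlation as low as that of Vehicle replicate 4 (0.976 against 0.977). Where a printed difference of a member moved by over 1.5 times without Pool 2 replicate 1 and Vehicle replicate 4, its value without Pool 2 replicate 1 or without both (18 libraries) stands beside it.

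Levels between genes were compared per kilobase of exon, in GENCODE M21 gene models of the same build as the files, GRCm38. Arc was the most abundant of the 10, at a mean of 47.3 CPM per kb over the 20 libraries. Egr1 followed at 28.7, Junb at 21.5 and Nr4a1 at 20.5 CPM per kb. Fos at 4.62, Dusp1 at 3.71, Ier2 at 3.56 and Npas4 at 2.75 CPM per kb formed a lower set, and Fosb at 0.809 and Egr2 at 0.576 CPM per kb were lowest. The ranges over mice of Junb, from 12.3 to 35.7 CPM per kb, and of Nr4a1, up to 38.1, overlapped along most of their length, as did those of Dusp1 and Ier2. Egr2 rested on 6 to 133 counts per library and Arc on 1424 to 6101. Ier2 has a single exon in the annotation. Junb and Prdx2, on opposite strands, share 351 bases, and an opposite-strand gene, Ergic1, shares 640 bases with the long annotated span of Dusp1. The libraries were stranded.

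The comparisons asked whether sRNAs of patients changed these genes relative to sRNAs of unaffected people, whether the patient pools differed, and whether any sRNA acted differently from vehicle. None of the 10 members passed the study's threshold, a log2 fold change of 0.3 or more in size with an unadjusted p-value under 0.05, in any of the 6 comparisons, and none had an unadjusted p under 0.05 in edgeR's or in DESeq2's test. In Pool 1 against Control, 0 of 10 were called where 3.48% of all genes were. The count was 0 of 10 in Pool 2 against Control, where 6.22% of all genes were called, and in Pool 2 against Pool 1 it was 0 of 10 against 6.82%. Against Vehicle, 0 of 10 were called in Control (5.10% of all genes), in Pool 1 (5.34%) and in Pool 2 (4.69%). With 10 genes these shares of all genes would themselves give at most about 1 call. After adjustment over all 25190 genes no gene of the table had an edgeR p under 0.05 in any comparison, with 1314 to 2146 genes under 0.05 unadjusted, and DESeq2 gave 0 to 115 genes at an adjusted p under 0.05, none of them a member. The median log2 fold change of the 10 members was 0.04 in Pool 1 against Control and −0.15 in Pool 2 against Pool 1, where all genes had medians of −0.01 and 0.02. Relative to Vehicle it was 0.14 in Control, 0.05 in Pool 1 and −0.17 in Pool 2, with medians of all genes between −0.01 and 0.01. In the 18 libraries the members' medians relative to Vehicle were 0.05 in Control, −0.01 in Pool 1 and −0.48 in Pool 2. In the test of any difference among the 4 groups, unadjusted p-values of the members ran from 0.638 for Fosb to 0.940 for Fos, where 7.86% of all genes were under 0.05.

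**Figure D1:**
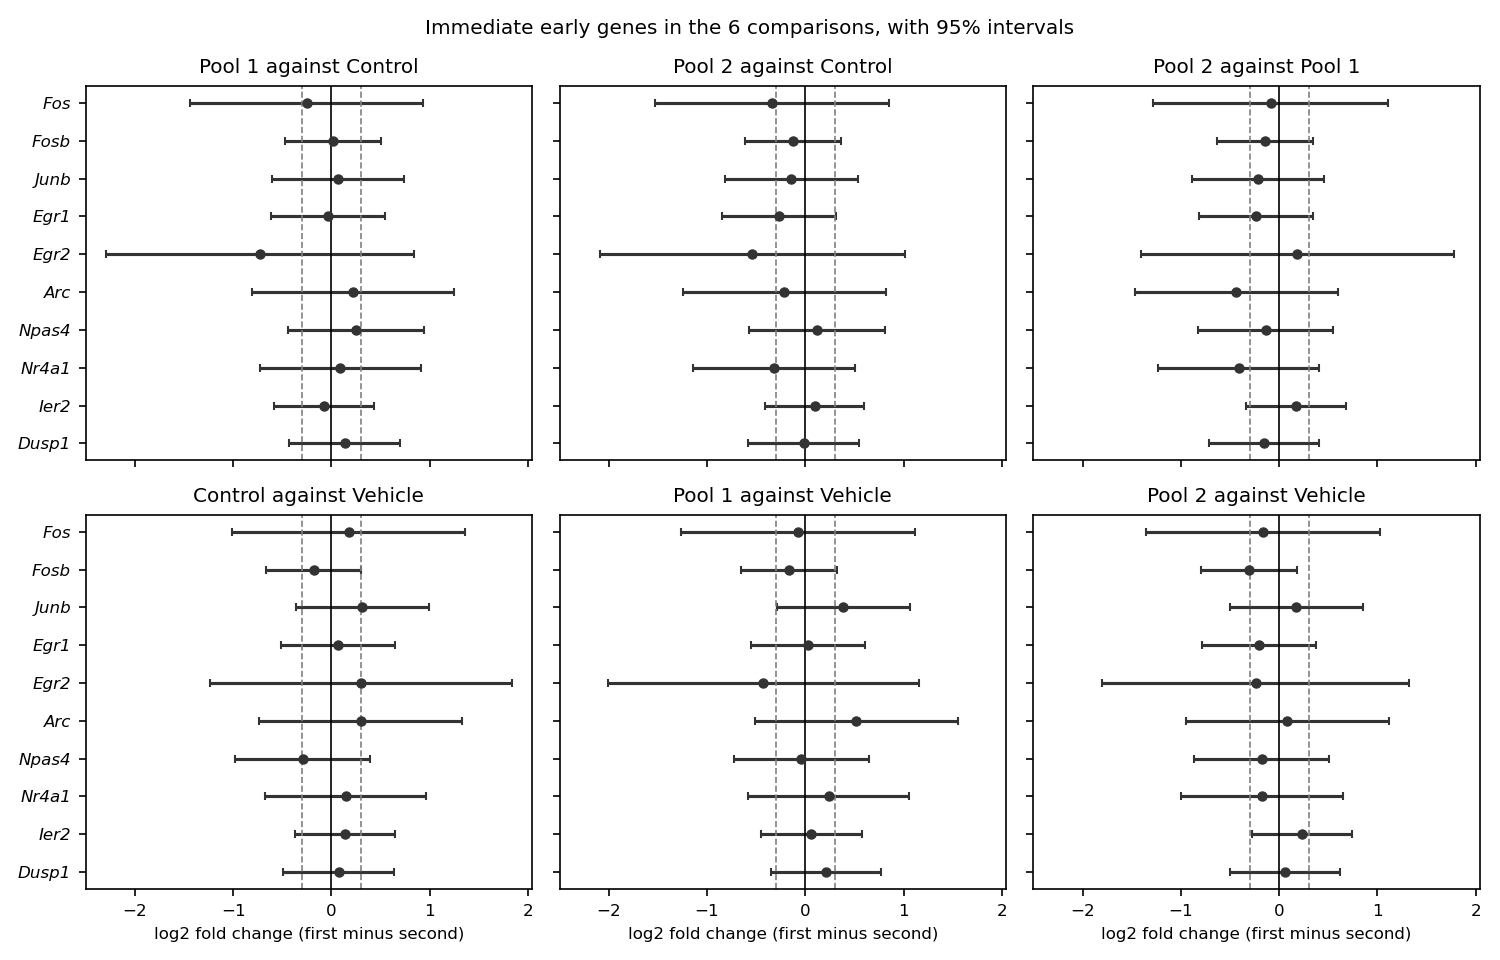
Log2 fold change (x axis, first group minus second) of each of the 10 genes (y axis) in the 6 comparisons, with 95% intervals from the edgeR fit of 20 libraries; dashed lines mark the study's fold threshold of 0.3 in either direction. All 60 intervals include 0, and those of Egr2 are the widest.

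Positions of the genes are those of the count table, on GRCm38. Fos (chromosome 12, 85473890 to 85477273) encodes the founding member of the Fos family, which pairs with Jun proteins to form the transcription factor AP-1. Vehicle mice had 21.2, 5.15, 15.9, 6.84 and 5.40 CPM and Control mice had 21.5, 17.3, 15.5, 3.34 and 4.29 CPM, in the order of their replicate numbers. Pool 1 mice had 7.36, 14.8, 16.0, 3.49 and 10.4 CPM and Pool 2 mice 18.5, 9.15, 5.75, 7.05 and 8.59 CPM. Every group held mice with high and with low Fos, and all 4 groups overlapped. The Control mean was 12.4 ± 8.11 CPM (SD, n = 5) and the Pool 2 mean 9.80 ± 5.02 CPM (n = 5), the extremes among the group means. The log2 fold change in Pool 2 against Control was −0.34 with a standard error of 0.56 (adjusted p = 0.941). It was −0.69 without Pool 2 replicate 1 and −0.04 without Control replicate 1, with neither past the threshold. Within Control alone the highest mouse had 6.43 times the Fos of the lowest.

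Fosb (chromosome 7, 19302696 to 19310051), whose truncated product accumulates with repeated activity, was the least variable member together with Ier2. Its values were 7.67, 6.15, 6.14, 5.75 and 2.47 CPM in Vehicle and 6.17, 4.56, 5.29, 4.21 and 4.64 CPM in Control. In Pool 1 they were 3.80, 6.10, 5.44, 3.36 and 6.48 CPM, and in Pool 2 6.49, 3.54, 4.83, 3.63 and 4.34 CPM. Only Vehicle replicate 5 fell below the other mice of its group by a wide gap, and it was the lowest of the 20. Fosb gave the smallest p-value of the 60 tests of members, in Pool 2 against Vehicle, with a log2 fold change of −0.31 (SE 0.24, adjusted p = 0.943). Without Vehicle replicate 5 the same comparison gave −0.49 and an unadjusted p of 0.0218, past the study's threshold, with an adjusted p of 0.646.

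Junb (chromosome 8, 84974484 to 84978718), a Jun-family partner of Fos proteins, ran from 28.4 CPM in Vehicle replicate 2 to 82.0 CPM in Pool 2 replicate 1. Its group means were 42.2 ± 13.5 CPM in Vehicle, 52.5 ± 21.2 in Control, 55.2 ± 17.6 in Pool 1 and 47.7 ± 19.9 in Pool 2 (SD, n = 5 each). The largest of its 6 differences was in Pool 1 against Vehicle, with a log2 fold change of 0.39 (SE 0.32, adjusted p = 0.951). Each SD was larger than the difference between any pair of group means.

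Egr1 (chromosome 18, 34859823 to 34864984) and Egr2 (chromosome 10, 67535475 to 67542188) encode zinc-finger transcription factors, Egr1 being tied to the persistence of synaptic plasticity. Egr1 ran from 78.5 CPM in Pool 1 replicate 1 to 204 CPM in Control replicate 1, and its group means lay between 114 ± 40.5 CPM in Pool 2 and 137 ± 45.1 CPM in Control (SD, n = 5). Its log2 fold change in Pool 2 against Control was −0.26 (SE 0.28, adjusted p = 0.889), and −0.50 (SE 0.27, adjusted p = 0.952) in the 18 libraries. The difference was smaller than the SD of either group.

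Egr2 was the most variable member. Vehicle mice had 5.60, 1.08, 2.10, 0.834 and 0.559 CPM and Control mice 4.38, 3.69, 2.39, 0.716 and 1.42 CPM. Pool 1 mice had 0.890, 2.38, 2.72, 0.474 and 1.20 CPM and Pool 2 mice 5.39, 0.935, 0.250, 1.09 and 1.07 CPM. In Vehicle and in Pool 2 a single mouse stood far above the rest, and the groups overlapped. The log2 fold change in Pool 2 against Control was −0.54 (SE 0.74, adjusted p = 0.925). Without Pool 2 replicate 1 it was −1.58 (SE 0.71), with an unadjusted p of 0.0390 and an adjusted p of 0.931, so that leaving out this 1 mouse brought Egr2 past the study's threshold. Without Control replicate 1 the log2 fold change was −0.25, not past the threshold.

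Npas4 (chromosome 19, 4984355 to 4990316) encodes a transcription factor of excitatory neurons that is induced by calcium entry and shapes inhibitory synapses onto them. Vehicle mice had 14.5, 9.44, 17.2, 11.3 and 9.45 CPM and Control mice 10.7, 11.9, 12.6, 7.39 and 7.96 CPM. Pool 1 mice had 5.74, 17.5, 15.7, 5.99 and 15.4 CPM and Pool 2 mice 18.5, 10.4, 5.75, 9.10 and 11.1 CPM. Pool 1 mice fell into a high set of 3 and a low pair, and all Control mice lay between these sets, while Vehicle and Pool 2 mice overlapped with both Pool 1 and Control. The log2 fold change in Pool 1 against Control was 0.25 (SE 0.33, adjusted p = 0.976).

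Nr4a1 (chromosome 15, 101254269 to 101274795) encodes an orphan nuclear receptor. Vehicle mice had 106, 44.5, 86.7, 52.1 and 55.2 CPM and Control mice 134, 93.9, 71.9, 35.1 and 47.5 CPM. Pool 1 mice had 46.0, 111, 104, 53.0 and 93.7 CPM and Pool 2 mice 112, 48.3, 40.2, 44.5 and 61.3 CPM. High mice, above 90 CPM, occurred in all 4 groups, and in Pool 2 there was 1 such mouse. Pool 2 against Pool 1 gave a log2 fold change of −0.41 (SE 0.39, adjusted p = 0.869), and −0.74 (SE 0.39, adjusted p = 0.906) in the 18 libraries.

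Arc (chromosome 15, 74669083 to 74672570), whose product acts at the synapse in the removal of AMPA receptors, was the most abundant member. Vehicle mice had 203, 70.1, 179, 77.7 and 83.1 CPM and Control mice 253, 209, 160, 68.1 and 63.0 CPM. Pool 1 mice had 123, 245, 238, 79.9 and 193 CPM and Pool 2 mice 279, 111, 80.7, 73.2 and 106 CPM. The highest and the lowest mouse of the study differed 4.43-fold, and each group reached from under 85 to over 200 CPM. Group means were 123 ± 63.2 CPM in Vehicle, 151 ± 84.4 in Control, 176 ± 72.4 in Pool 1 and 130 ± 84.8 in Pool 2 (SD, n = 5 each). Pool 1 against Vehicle gave a log2 fold change of 0.52 (SE 0.49, adjusted p = 0.966), and its 95% interval reached from −0.52 to 1.55.

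Ier2 (chromosome 8, 84661331 to 84662854), which encodes a nuclear protein, and Dusp1 (chromosome 17, 26505590 to 26562128), which encodes a phosphatase that inactivates MAP kinases and so limits the signal that induced it, showed the smallest differences. Ier2 ran from 3.07 CPM in Vehicle replicate 2 to 9.30 CPM in Control replicate 1, and Dusp1 from 7.51 CPM in Control replicate 4 to 18.2 CPM in Vehicle replicate 1. Group means of Dusp1 lay between 11.5 ± 4.64 CPM in Vehicle and 13.4 ± 3.85 CPM in Pool 1 (SD, n = 5). Those of Ier2 lay between 5.02 ± 1.48 CPM in Vehicle and 5.90 ± 1.00 CPM in Pool 2. The largest log2 fold change in size of either gene was 0.23, for Ier2 in Pool 2 against Vehicle (SE 0.25, adjusted p = 0.953), which fell to 0.06 in the 18 libraries.

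**Figure D2:**
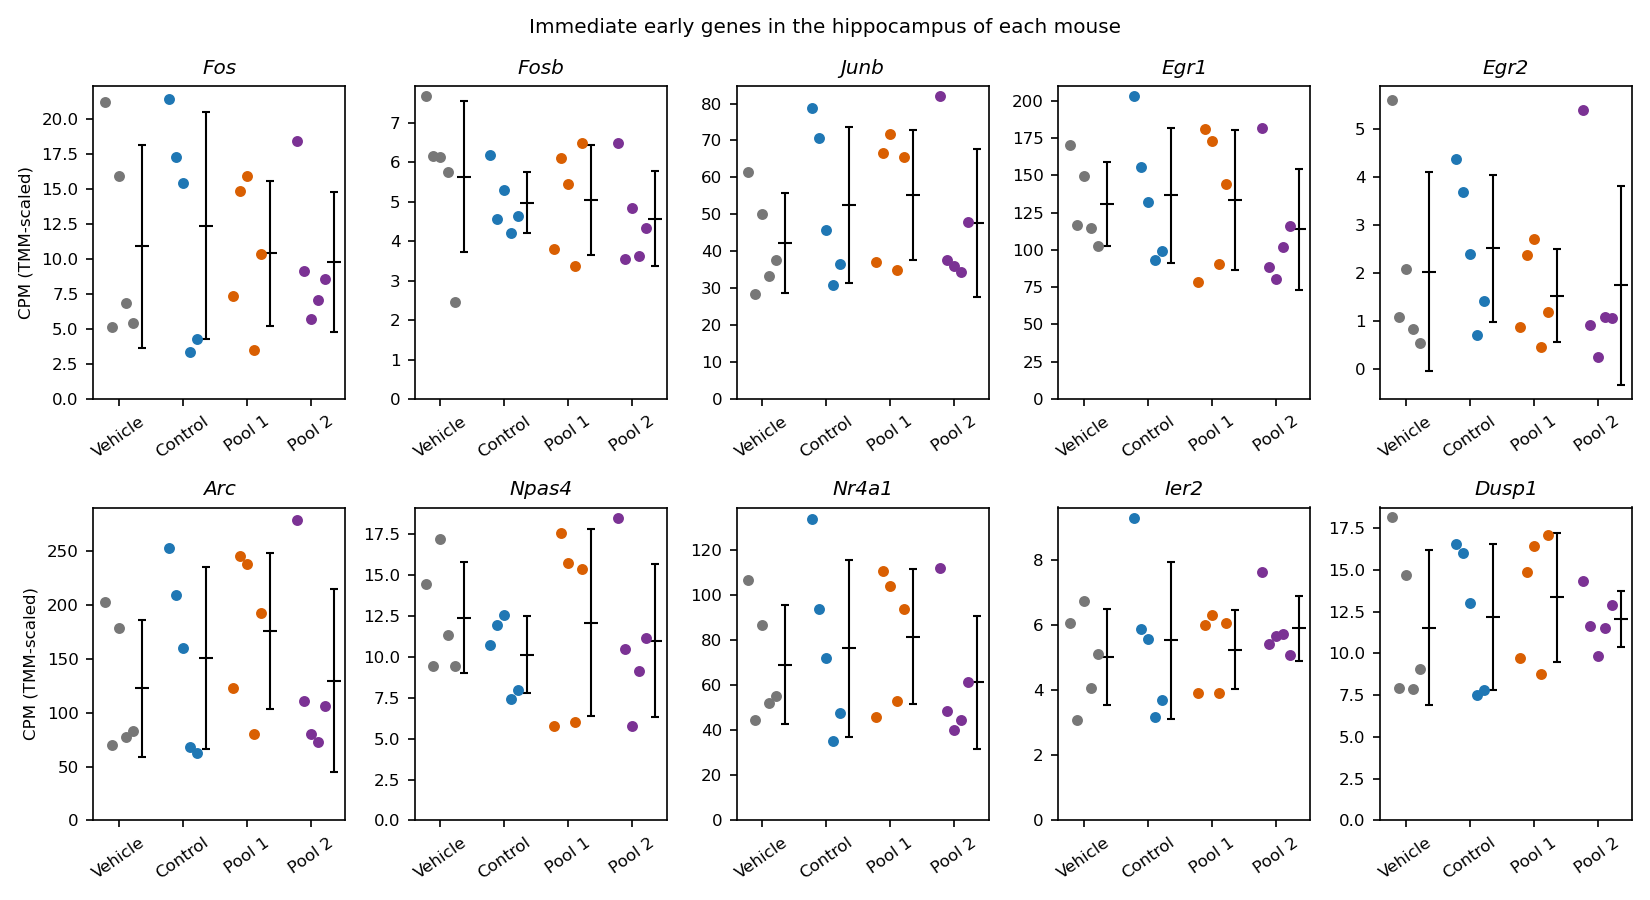
CPM (y axis, scaled with TMM factors) of each of the 10 genes in each mouse, by group (x axis); points run in the order of replicate numbers and the black bar is the group mean ± SD (n = 5). High and low mice occur in every group; Pool 2 replicate 1, the leftmost purple point, is the highest Pool 2 mouse in all 10 panels.

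Pool 2 replicate 1 had the highest value of its group for all 10 members, so each Pool 2 mean depends on it. Over the 10 members the median log2 fold change in Pool 2 against Control was −0.18, against 0.00 over all genes, with 8 members lower and 2 higher. Control replicate 1 had the highest Control value of all members but Npas4. Without it, the log2 fold change in Pool 2 against Control was −0.25 for Egr2, −0.08 for Egr1, −0.04 for Fos and for Fosb, and −0.02 for Nr4a1. For Junb and for Arc it was then 0.05, for Dusp1 0.12 and for Ier2 0.36. With Pool 2 replicate 1 and Vehicle replicate 4 left out instead, the median in this comparison was −0.46, with 10 of 10 lower. In the same 18 libraries the median was −0.45 in Pool 2 against Pool 1, and Arc had the smallest p of the 10 there, at a log2 fold change of −0.92 (SE 0.47, adjusted p = 0.901). In Pool 2 against Vehicle it was −0.48, and Egr2 had the smallest p, at 0.0575. These comparisons share the Pool 2 mice, and the members move together, so the counts of lower members are not independent. The standard errors of the 60 fold changes over 20 libraries ran from 0.24 to 0.76.

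The spread between mice of the same group was large for these genes. The SD of log2 CPM within groups was 0.94 for Fos, 1.18 for Egr2, 0.78 for Arc and 0.62 for Nr4a1. Among the 500 genes nearest in mean level the medians were 0.22, 0.39, 0.16 and 0.15. For 8 members the SD was above that of at least 95.4% of the 500 genes of like level. Fosb, above 79.4%, and Ier2, above 82.4%, were nearer to them. The biological coefficient of variation estimated by edgeR ran from 25.8% for Fosb to 78.0% for Egr2.

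**Figure D3:**
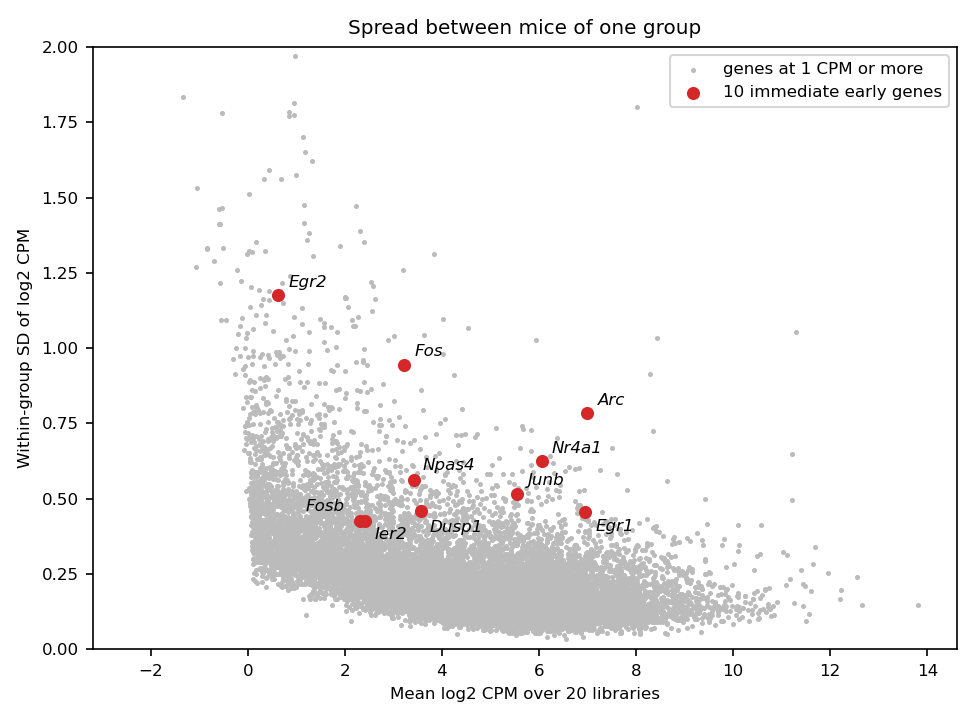
SD of log2 CPM between mice of the same group (y axis) against mean log2 CPM over the 20 libraries (x axis) for genes with a mean of at least 1 CPM (grey; 3 genes lie above the axis) and the 10 members (red). Arc and Fos lie above almost all genes of like level, and Fosb and Ier2 lie nearest to the bulk.

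The 10 genes were high and low in the same mice. Over the 45 pairs of members, Pearson's r of log2 CPM across the 20 libraries had a median of 0.80 and ran from 0.36 for Fosb with Ier2 to 0.95 for Junb with Nr4a1. Spearman's rho had a median of 0.78. The points are libraries, which share their depth and scaling between genes and differ in tissue composition, so r is given as a description. With the group means subtracted the median was 0.87. It was 0.77 when each pair was taken without the 2 libraries farthest from the median of 1 of its 2 genes. Nr4a1 followed the mean of the other 9 members most closely, with r = 0.96, then Fos and Arc at 0.94, and Fosb least, with 0.62. Neither the total count of a library (r = −0.27) nor its TMM factor (r = −0.02) went with the members as closely.

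The mean z-score over the 10 members, the number of SDs by which a mouse lies from the mean of the 20, placed each mouse. It was highest in Control replicate 1 (1.30), Pool 2 replicate 1 (1.30), Vehicle replicate 1 (1.14) and Pool 1 replicate 2 (0.96), 1 mouse of each group. It was lowest in Control replicate 4 (−1.21), Pool 1 replicate 4 (−1.11) and Pool 2 replicate 3 (−0.90). In all, 9 mice lay above 0 and 11 below. Above 0 were 2 of 5 Vehicle, 3 of 5 Control, 3 of 5 Pool 1 and 1 of 5 Pool 2 mice.

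**Figure D4:**
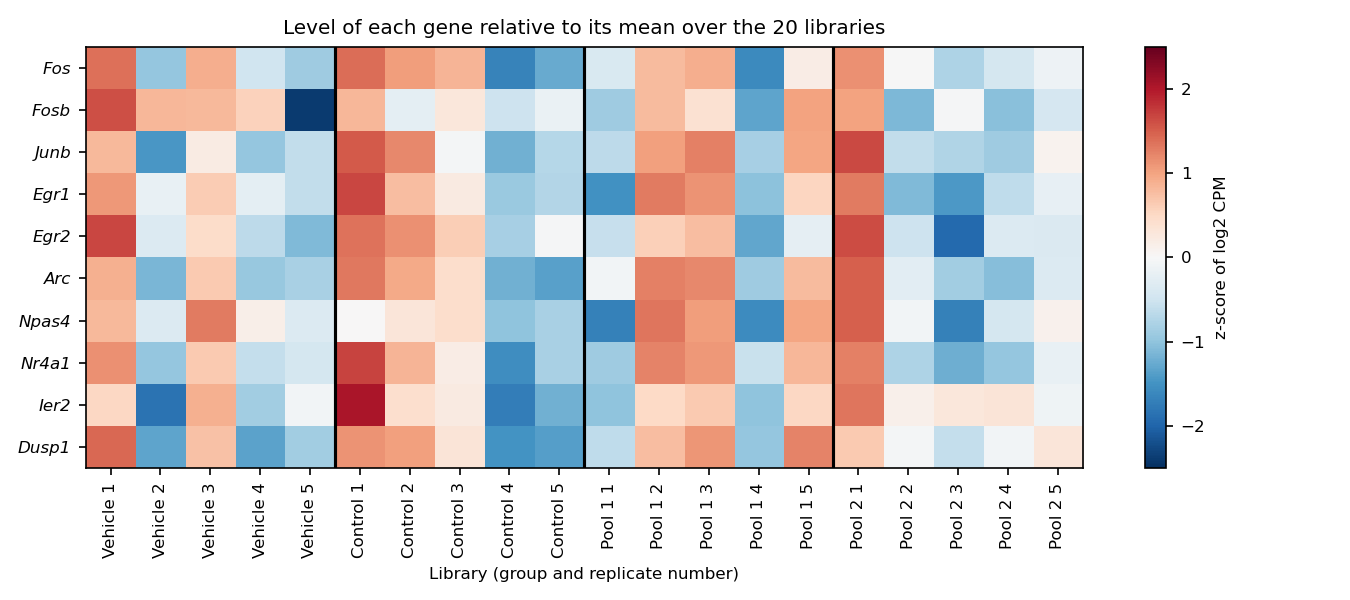
Colour gives the z-score of log2 CPM of each of the 10 genes (rows) in each of the 20 libraries (columns, by group and replicate number; black lines part the groups), red above and blue below the gene's mean. Columns are mostly of a single colour, and each group of 5 has red and blue columns.

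Some markers of tissue composition moved with the members. For each list of markers, the mean of their log2 CPM in a library was correlated with the mean z-score. CA1 pyramidal markers gave r = 0.58, with 5 of 5 markers positive, and dentate granule markers r = −0.65, with 0 of 5 positive. Control replicate 4, the mouse lowest in members, had the highest dentate sum, 690 CPM, and Pool 1 replicate 2, among the highest in members, had the highest CA1 sum, 1250 CPM. Haemoglobin and other red-cell genes correlated at r = 0.63, with 5 of 5 positive, from 34.8 to 182 CPM summed. Interneuron markers gave 0.40 (0.61 in the 18 libraries), with 4 of 6 positive and single genes from −0.27 to 0.61. Thalamic markers gave −0.38 (−0.37), with 0 of 5 positive, and oligodendrocyte markers 0.35 (0.34), with 5 of 5 positive. Microglial markers gave 0.21 and astrocyte markers 0.09, which turned to −0.13 and −0.36 in the 18 libraries. The remaining lists gave weak values: neurons −0.20 (−0.01 in the 18 libraries), neocortex 0.19 (0.15) and meningeal fibroblasts −0.16 (−0.21). Endothelial markers gave 0.09 (−0.09) and choroid plexus markers −0.01 (0.23). No marker of the lists was at 0 in any library. The part of composition and blood in the members' variation was not tested. In these bulk libraries, more cells of a type and more RNA per cell cannot be told apart.

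The genes whose levels over the 20 libraries were most like the members' mean, among 14787 other genes with at least 1 CPM on average, were led by 1700016P03Rik, at r = 0.96. This long noncoding RNA (chromosome 11, 75172560 to 75177633) spans the microRNA genes Mir212 and Mir132 on the same strand, which CREB is known to induce. It ran from 1.56 CPM in Vehicle replicate 2 to 9.46 CPM in Pool 2 replicate 1. The next were Trib1, a pseudokinase (0.89), Dusp6, a phosphatase of MAP kinases (0.89), Tnfaip3, an inhibitor of NF-kappaB signalling (0.85), and Midn, an immediate early gene product that brings nuclear proteins to the proteasome (0.85). Gadd45b (0.84) and Egr4 (0.83), both induced by activity, the muscarinic receptor gene Chrm4 (0.82), the transaminase gene Gpt2 (0.79) and the chaperone gene Dnajb5 (0.79) completed the 10. Over all genes the quartiles of r were −0.22 and 0.23, and 42 genes reached 0.7. Of the 10, 8 remained among the 10 most alike with the group means subtracted, and 8 in the 18 libraries.

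Other genes of the pathway were taken from 3 lists of known genes. Of the 25 other immediate early genes, 23 had at least 1 CPM on average, and 22 of these had a positive r with the members, with a median of 0.39, against 0.00 over all genes. Jun was the exception, at −0.49, while Per1 reached 0.75 and Sik1 0.72. Of 20 genes of the later activity wave, 15 had a positive r, from 0.89 for Dusp6 to −0.50 for Bdnf, the neurotrophin gene. Of 25 upstream signalling genes, the receptors, kinases and factors through which activity acts, 5 had a positive r, and the median was −0.23. Srf, which encodes the serum response factor and is itself induced by activity, was the highest of them, at 0.73.

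**Figure D5:**
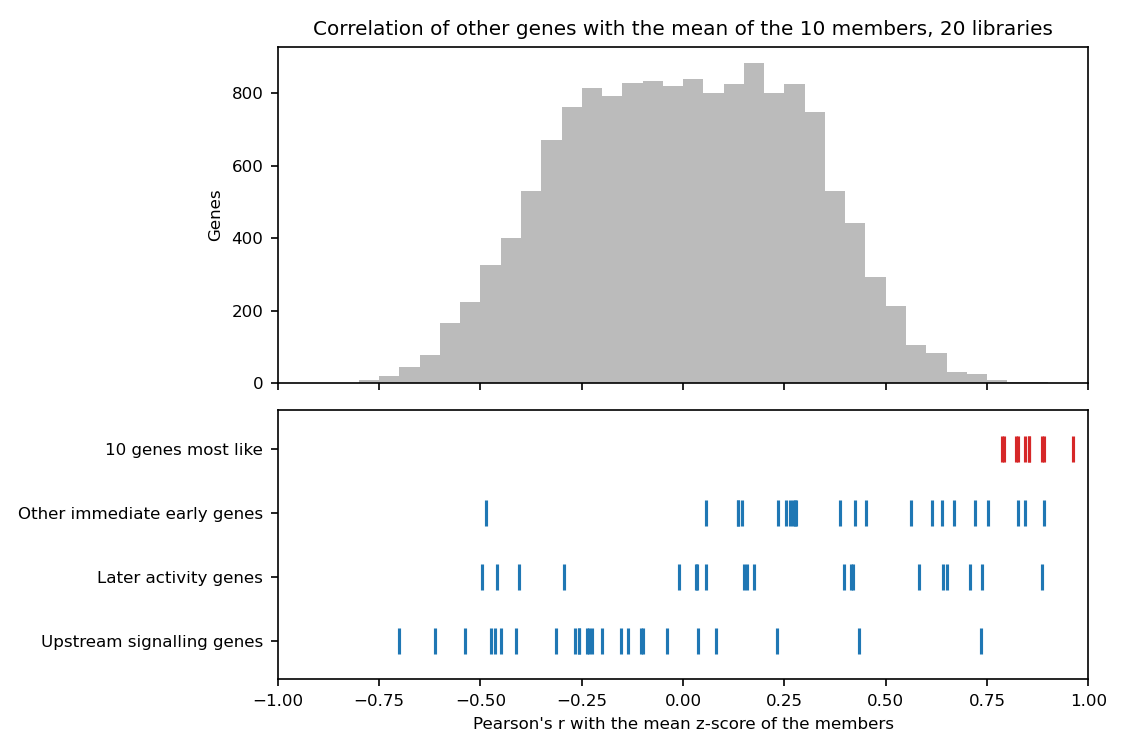
Upper panel, number of genes (y axis) by Pearson's r between log2 CPM and the mean z-score of the 10 members over 20 libraries (x axis); lower panel, r of the 10 most alike genes and of the genes of each list, 1 tick a gene. Other immediate early genes lie mostly to the right of 0 and upstream signalling genes mostly to the left.

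Between groups few of these 70 genes passed the study's threshold, and none had an adjusted p under 0.277 in edgeR's test. In Pool 1 against Control, 1 rose and 1 fell of 70, where 3.48% of all genes were called. Vgf, a secreted neuropeptide precursor, rose with a log2 fold change of 0.37 (SE 0.13) and Inhba, an activin subunit, fell with −0.34 (SE 0.16), both at an adjusted p of 0.917. Of the same 70, 3 rose and 1 fell in Pool 2 against Control, where 6.22% of all genes were called. Both counts lie near the shares of all genes. The kinase gene Pim1 rose (0.58, SE 0.22, adjusted p = 0.529), as did Ier3, a gene of the stress response (0.52, SE 0.18, adjusted p = 0.486), and Rps6ka1, a kinase acting on CREB (0.45, SE 0.19, adjusted p = 0.580). Inhba fell (−0.37, SE 0.16, adjusted p = 0.580). Without Vehicle replicate 4 and Pool 2 replicate 1, Pim1 (0.28) and Rps6ka1 (0.19) were no longer past the threshold.

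Between the patient pools 2 of the 70 rose and 1 fell in Pool 2 relative to Pool 1, where 6.82% of all genes were called. Pim1 rose (0.76, SE 0.22, adjusted p = 0.277), as did Rps6ka1 (0.41, SE 0.19, adjusted p = 0.562), and Klf10, a transcription factor gene, fell (−0.44, SE 0.19, adjusted p = 0.526). In the 18 libraries Pim1 was at 0.46, still past the threshold, and Rps6ka1 was not (0.14). In Control against Vehicle none of the 70 passed (5.10% of all genes), and in Pool 1 against Vehicle (5.34% of all genes) only Inhba did, lower (−0.35, SE 0.16, adjusted p = 0.749). Relative to Vehicle, 2 of 70 rose in Pool 2, Ier3 (0.53, SE 0.18) and Pim1 (0.50, SE 0.22), and 3 fell, at an adjusted p of 0.886 for each of the 5, where 4.69% of all genes were called. Those that fell were Nr4a3, an orphan receptor gene of the family of Nr4a1 (−0.44, SE 0.13), Inhba (−0.38, SE 0.16) and Homer1, a synaptic scaffold gene (−0.34, SE 0.14). Of the 15 calls over the 6 comparisons, 8 held in the 18 libraries. Inhba against Vehicle, in both patient pools, and Homer1 and Pim1 in Pool 2 against Vehicle were among the 7 that did not hold.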

How the data were processed

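RNA of the hippocampus of 20 mice was sequenced by the authors as stranded libraries of polyadenylated RNA, in single-end reads of 50 nt. Per the paper's methods and the labels, reads were checked with FastQC 0.11.5, aligned to GRCm38 (mm10) with STAR and counted per gene of GENCODE M20, and genes summing to under 10 were discarded. The deposited values are raw counts, with the sequencing rounds summed, and the reading of strand in the counting is not given in the sources used here. Groups came from the sample titles.

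Counts were scaled by TMM and tested in 1 fit of the 4 groups with edgeR 4.0.16 (robust quasi-likelihood) in R 4.3.3, adjusted by Benjamini-Hochberg over 25190 genes. The labels number the samples of a group and do not say that each is a single animal. They are called mice here, and p-values set differences of group means against the spread between them, not between donor mixtures. CPM uses the TMM factors, and log2 CPM a prior count of 2. Likeness and spread used genes of at least 1 CPM. Gene models came from GENCODE M21, which holds 99.8% of the genes. The fit was tested on simulated data. The changes planted there were larger than any fold change of a member. The simulated spread was that usual for a gene's level, so power for the more variable members was not tested.

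The members and lists were chosen with earlier results of these data known. The text names all 10 members, genes of the 3 lists past the study's threshold in any comparison (at most 5 per list and comparison), and the 10 genes most alike. The values of 1 list gene are not reported here. The other list genes named for their r were chosen after their values were seen. Alternatives were DESeq2 1.42.0, its size factors, 2 filters on low counts, the default spread estimate, only the groups compared, a replicate block, each library left out, and 18 libraries without Vehicle replicate 4 and Pool 2 replicate 1.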

Additional observations from a re-analysis of the deposited data

Results flagged for a closer look

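Pool 2 replicate 1 stood far above the other 4 Pool 2 mice for 5 of the 10 members, by a gap of more than 0.71 of the range of the group (Dixon's 95% limit for 5 values). Its values were 18.5 CPM for Fos (next 9.15), 82.0 CPM for Junb (next 48.02), 5.39 CPM for Egr2 (next 1.09), 279 CPM for Arc (next 111) and 7.63 CPM for Ier2 (next 5.72). Of 40 sets of 1 gene in 1 group, these 5 passed, where chance passes about 1 in 20 sets of normally distributed values. The CPM were not transformed and the members move together, so that rate need not hold here. The same library had the highest microglial, astrocyte, endothelial and blood marker sums of the 20, and the part of these in its member levels was not tested.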

How the results depend on the processing

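No member passed the study's threshold under DESeq2, its size factors in edgeR, either filter on low counts, the default spread estimate or fits of only the groups compared. Of 1680 recomputed values of members under 28 alternatives, 3 passed. In Pool 2 against Control, 1 member (Egr2) passed in the 18 libraries, and between 0 and 1 with each library left out in turn (1 without Pool 2 replicate 1). In Pool 2 against Vehicle the range with each library left out was 0 to 1 (Fosb, without Vehicle replicate 5). Fold changes that were not called changed sign when a library was left out, such as Control replicate 1 or Pool 2 replicate 1. Egr2 turned from −0.43 to 0.43 in Pool 1 against Vehicle and from −0.24 to 0.57 in Pool 2 against Vehicle without Vehicle replicate 1, and from 0.19 to −0.86 in Pool 2 against Pool 1 without Pool 2 replicate 1. The smallest adjusted p of a member under any alternative was 0.523. No member had an adjusted p under 0.05 among the 4 groups under any alternative run.

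With the replicate block, Egr2 in Pool 2 against Control had a log2 fold change of −0.64 (SE 0.57, adjusted p = 0.885), and no member was called. Same-numbered mice had correlations of their deviations between −0.38 and 0.30, and 2 of 20 libraries were most alike to a library of their own number. What the numbers stand for is not given in the labels and was not tested. The levels of the members by number are given under other observations. The median r over the 45 pairs ran from 0.78 to 0.84 with each library left out.

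With 5 mice a group and this spread, 95% intervals of Fos, Arc and Egr2 reach beyond 1 on the log2 scale, in at least 1 direction, in all 6 comparisons, so changes of that size are not excluded there.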

Other observations

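The 4 mice that carry replicate number 4, 1 in each group, all lay below the median of the members' mean z-score, between −1.21 and −0.54. Their Arc ran from 68.1 to 79.9 CPM and their Fos from 3.34 to 7.05 CPM. The labels give the number no meaning, and this was noticed after the values were seen and was not tested.

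The genes whose levels ran most opposite to the members' mean over the 20 libraries were Gm5148 (r = −0.80), Tmem18 (−0.79), Synpr, a synaptic vesicle protein gene (−0.78), Gm4673 (−0.77) and Tle4 (−0.77). Each stayed at −0.75 or lower in the 18 libraries and at −0.77 or lower with the group means subtracted.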
